A study of Mus musculus with 18 samples.

Results

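The matrix metalloproteinases (MMPs), the ADAMTS proteases and the tissue inhibitors of metalloproteinases (TIMPs) were followed across mouse inflamed colon and colorectal tumours. Members were all genes named Mmp, Adamts or Timp followed by a number and annotated as protein-coding in the deposited tables. This gave 45 of 54532 listed genes, of which 22 were MMPs, 19 ADAMTS genes and 4 TIMPs. Of 46 matching names, Mmp1a was left out because the tables class it as a polymorphic pseudogene. Every member reached 3 counts in at least 1 library. The filter on low counts passed 41 members in the colitis libraries, 36 in the tumour libraries and 42 in a joint fit of both. Mmp1b, Mmp21 and Adamts13 passed in none.

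The study compared C57BL/6 mice lacking Il1f5, which encodes the interleukin-36 receptor antagonist, or Il1f9, which encodes the interleukin-36 gamma agonist, with Il1f5+/+ or Il1f9+/+ mice of the same line. For colitis, all mice drank 2.5% dextran sulfate sodium (DSS) for 5 days and water for 2 days, and a 0.5 cm piece of distal colon near the anus was taken. This gave 3 Il1f5+/+, 3 Il1f5-/-, 2 Il1f9+/+ and 2 Il1f9-/- libraries. For tumours, every mouse had been through the azoxymethane (AOM) and DSS model, and each of the 4 genotypes gave 2 libraries. The +/+ libraries are called WT below and the -/- libraries KO. The deposited design counts mice, so each library was read as 1 mouse. Littermates, ages, sexes and the extent of each deletion are not given in the sources used here. No library came from an untreated mouse, so every comparison lies within DSS-treated animals.

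MMPs are zinc proteases that cut collagens, proteoglycans, elastin and many cytokines and receptors at the cell surface. Most are made as inactive precursors that plasmin, furin or another MMP activates, and TIMPs block the active site. ADAMTS proteases carry thrombospondin repeats that hold them in the matrix. Some cut large proteoglycans such as versican, and others trim procollagen. In colitis, MMPs come from neutrophils, macrophages, stromal cells and wound-edge epithelium and take part in ulceration and repair. In this bulk tissue, fewer cells of a type and less RNA per cell cannot be told apart.

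Library totals ran from 16621611 to 23776174 counts, and mitochondrial genes took 2.01 to 3.56% of them. Levels are given as CPM, the count of a gene divided by the total of its library and scaled to one common size, in the order of the replicate numbers. The targeted genes checked the labels. Il1f9 had 232 and 90 counts in the WT colitis libraries of its line against 9 and 1 in KO, and 1652 and 752 against 2 and 0 in tumours. For Il1f5, all WT libraries of the Il1f5 line and all libraries of the Il1f9 line held 0 counts. The libraries labelled Il1f5 KO held 36, 43 and 45 counts in colitis and 211 and 102 in tumours. The Il1f5 counts thus went against the labels, and each direction in the Il1f5 line below is that of the libraries labelled Il1f5 KO. Epcam, Cdh1 and the other 6 epithelial markers were detected in every group, with a summed level of 13119.9 to 13859 CPM in the WT colitis libraries of the Il1f5 line. A member with a Benjamini-Hochberg adjusted p under 0.05 over all tested genes in edgeR's quasi-likelihood test is called higher or lower.

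Of the 45 members, 9 lie side by side on chromosome 9. Mmp13, Mmp12, Mmp1b, Mmp3, Mmp10, Mmp8, Mmp27, Mmp20 and Mmp7 fill chr9:7272514-7699585, with no other protein-coding gene of the tables between them. The coordinates are those of the tables, which matched the GRCm38 annotation GENCODE M21 for 44 of 45 members. The promoters of 5 members of the cluster and that of Mmp8 are shown because several of the widest changes reported below fell on these genes. Each line gives the 110 bases before an annotated start, 5′ to 3′, from RefSeq on GRCm38.p6. All lie on the plus strand. Capitals mark TGANTCA, which takes in the site of AP-1 transcription factors.

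Mmp13, chr9:7272404-7272513: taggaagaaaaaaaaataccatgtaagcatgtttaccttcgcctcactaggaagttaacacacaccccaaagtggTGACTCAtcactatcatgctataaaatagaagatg
Mmp12, second start, chr9:7347264-7347373: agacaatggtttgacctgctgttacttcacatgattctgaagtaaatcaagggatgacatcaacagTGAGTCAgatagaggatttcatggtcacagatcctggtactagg
Mmp3, chr9:7445712-7445821: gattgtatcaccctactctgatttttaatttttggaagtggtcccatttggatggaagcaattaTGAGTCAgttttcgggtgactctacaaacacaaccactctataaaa
Mmp10, chr9:7502232-7502341: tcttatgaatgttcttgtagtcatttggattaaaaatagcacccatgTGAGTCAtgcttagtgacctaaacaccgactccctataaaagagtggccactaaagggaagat
Mmp7, first start, chr9:7691980-7692089: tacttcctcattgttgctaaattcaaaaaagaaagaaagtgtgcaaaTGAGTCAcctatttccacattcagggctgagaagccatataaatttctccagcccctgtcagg
Mmp8, chr9:7558319-7558428: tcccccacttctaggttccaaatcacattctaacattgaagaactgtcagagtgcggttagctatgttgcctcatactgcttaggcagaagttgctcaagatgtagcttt

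The capitals begin 35 bases before the start in Mmp13, 44 in Mmp12, 46 in Mmp3 and 63 in both Mmp10 and Mmp7. Mmp12 and Mmp7 have 2 starts each in the table, and the first start of Mmp12 and the second of Mmp7, not shown, held 0 matches in their 110 bases. TGANTCA reads as the same motif on both strands. Searched from 250 bases before to 50 after each start, it was found at 1 or more starts for 7 of the 9 genes of the cluster, those 5 and Mmp1b and Mmp20, and not for Mmp8 or Mmp27. It was found for 0 of the other 22 members in the table. Of all 27025 genes in that table, 8.97% held it, and 7.81% of all 32851 windows. The RefSeq table matched 31 members. Adamts4, Adamts5, Adamts6, Adamts7, Adamts8, Adamts10, Adamts15, Adamts16, Adamts19, Mmp2, Mmp9, Mmp16, Mmp17 and Mmp19 had no entry. A match is a description of the letters and no measurement of binding.

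Reads of 8 members overlap another gene by more than 10% of their exon bases in GENCODE M21. They are Timp3 (Syn3), Mmp28, Adamts9, Mmp19, Adamts8, Mmp7, Mmp24 and Mmp1b. The library kit did not mark the strand, so reads of such a member and of its neighbour cannot be told apart over the shared bases.

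Per length, Mmp3, Mmp13 and Timp1 had the highest medians of the members over the WT colitis libraries of both lines. Mmp3 had a median of 49.8 FPKM (the authors' counts scaled by gene length and library size, 5 libraries, range 15.2 to 90.2). Mmp13 followed with 41 (10.6 to 63.7) and Timp1 with 38 (15.1 to 79.2). The ranges of these 3 and of Mmp15, Mmp14, Mmp2, Mmp10 and Timp2, next in order with medians from 20.8 to 32.9 FPKM, overlapped. Among the MMPs, Mmp15 was the highest in Il1f5 WT 1 and WT 2 and Mmp3 in the other 3 libraries. In WT tumours, Mmp7 was the highest and Mmp10 the second highest MMP in all 4 libraries. Mmp7 reached a median of 538 FPKM (4 libraries, 269.6 to 869.9), whose lowest library overlapped the 56.1 to 372 of Mmp10. Mmp13 and Mmp14 had the next medians, with overlapping ranges of 35.8 to 249 and 44.8 to 68.3 FPKM, and in Il1f5 WT 2 Mmp13 lay below both Mmp14 and Mmp15. The FPKM of the colitis table and of both tumour tables were scaled separately by the authors, so these levels are compared within a tissue.

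In the inflamed colon, members were called mostly higher with the Il1f5 KO label and only lower with the Il1f9 KO label. With the libraries labelled Il1f5 KO, 18 of 41 tested members were higher than in WT and 2 lower, beside 13.7% higher and 11% lower among all tested genes. With Il1f9 KO, 0 were higher and 19 lower, beside 9.59% and 9.98%. There, 22 members had an unadjusted p under 0.05, and DESeq2's Wald test also called 0 higher. The median log2 fold change of the 41 was 0.77 in the Il1f5 line and -0.95 in the Il1f9 line, against -0.01 for all genes in both. The test of the difference between the lines called 25 of the 41, all with the lower effect in the Il1f9 line, beside 24.8% of all genes. By these labels, Mmp2, Mmp10, Mmp19, Adamts2, Adamts7 and Adamts12 were called higher in the first line and lower in the second. Mmp7 and Mmp28 were lower in both.

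These contrasts between the lines rest on the Il1f5 labels, which the Il1f5 counts went against. Exchanging WT and KO of the Il1f5 line, an alternative chosen after the data were seen, turns every sign of that line. It gives 2 members higher and 18 lower there, beside the 0 and 19 of the Il1f9 line. Mmp2, Mmp10, Mmp19, Adamts2, Adamts7 and Adamts12 would then be lower in both lines, and Mmp7 and Mmp28 higher in the first and lower in the second. The test of the difference between the lines then called 9 members instead of 25, beside 18.5% of all genes. Mmp25, Mmp12, Mmp28 and Adamts15 had a called, lower effect in the Il1f9 line under either reading of the labels, with differences of -4.75, -2.35, -1.06 and -0.85 as labelled and -3.76, -2.63, -2.21 and -1.04 exchanged. Mmp7 had a called, lower effect there only when exchanged (-3.73, adjusted p = 0.000354), and Mmp15, Mmp17, Adamts8 and Timp2 then had a called, higher effect. Every library of the Il1f9 line, none of which carries an Il1f5 KO label, also held 0 Il1f5 counts, like those labelled Il1f5 WT. Whether the labels are exchanged was not tested, and the directions below are those of the labels.

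The counts depended on single libraries. With the Il1f5 KO label, leaving out 1 library gave 9 to 19 members higher, with 10 without WT 1 and 9 without WT 2, and 1 instead of 2 lower without WT 2 or KO 2. The Il1f9 line gave 7 to 14 lower, with 8 without WT 2 and 7 without KO 2. Mmp2, Mmp14, Mmp15, Mmp17, Adamts2, Adamts7, Adamts8 and Timp2 were called higher, and Mmp7 lower, without each library of the Il1f5 line. Mmp7, Mmp10, Mmp25, Mmp28, Adamts7 and Adamts12 were called lower without each library of the Il1f9 line. The difference between the lines was called for 13 members without Il1f9 KO 2 and for 14 without Il1f9 WT 2, and 11 members were called without each library.

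**Figure D1:**
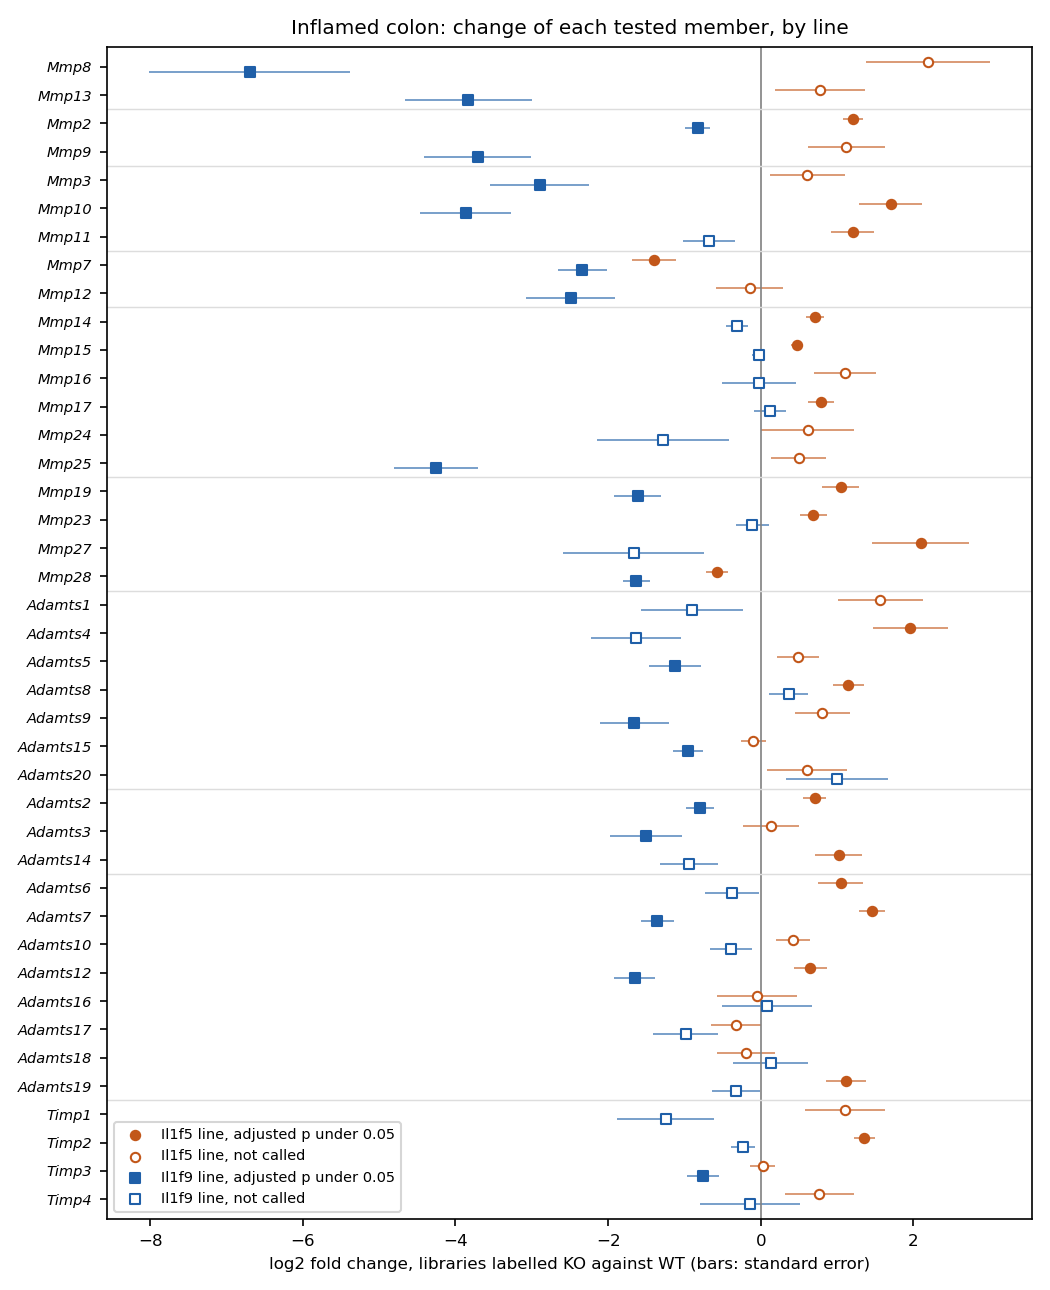
Log2 fold change of the libraries labelled KO against WT in inflamed colon for the 41 tested members (vertical axis, grouped by role), with the Il1f5 line as circles, the Il1f9 line as squares, filled marks for an adjusted p under 0.05 and bars for 1 standard error. By the labels, most circles lie right of 0 (18 called higher) and most squares left of it (19 called lower), and Mmp8 spans the widest gap, from 2.19 to -6.70.

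The collagenases cut fibrillar collagen. Mmp8, stored in the granules of neutrophils, stood at 66.5 and 58.5 CPM in the WT colitis libraries of the Il1f9 line and at 0.8 and 0.34 in KO. Among Il1f5 libraries it stood at 1.22, 1.68 and 9.59 CPM in WT and 9.38, 33.5 and 18.8 in the libraries labelled KO. Both Il1f9 WT libraries lay above all other colitis libraries, and in the Il1f5 line WT 3 lay within the range of the KO-labelled libraries. Mmp8 fell in Il1f9 KO (log2 fold change -6.70 ± 1.32 SE, adjusted p = 0.0161) and was not called in the Il1f5 line (log2 fold change 2.19 ± 0.81 SE, adjusted p = 0.096). The call ended without WT 2, KO 1 or KO 2 (adjusted p = 0.0639 to 0.11). Mmp13, collagenase 3, had 168 and 118 CPM in WT and 13.2 and 5.79 in KO of the Il1f9 line and fell (log2 fold change -3.83 ± 0.83 SE, adjusted p = 0.0222). Its 28, 48.3 and 109.6 CPM in WT overlapped the 134, 140.0 and 61 of the libraries labelled Il1f5 KO (log2 fold change 0.77 ± 0.59 SE, adjusted p = 0.376). The Mmp13 call ended without WT 1, WT 2, KO 1 or KO 2 (adjusted p = 0.0651 to 0.129). Mmp1b, the remaining collagenase, had at most 5 counts in any library.

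Neutrophil markers moved with the collagenases. In Il1f9 KO, 6 of the 8 listed neutrophil markers fell, Mmp8 being 1 of them. The summed level of the other 7 was 732 to 1326 CPM in WT and 195 to 253 in KO. In the Il1f5 line edgeR called 0 of 8, with 5 at an unadjusted p under 0.05, and with sums of 190.3 to 419 CPM in WT and 315 to 724 in the KO-labelled libraries. No listed neutrophil marker was at 0 throughout a group. The part of neutrophils in the Mmp8 and Mmp13 differences was not tested.

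The gelatinases cut denatured collagen and basement membrane. Mmp2, gelatinase A of stromal cells, stood at 82.3, 80.1 and 73.5 CPM in WT and 194, 219 and 157 in the libraries labelled Il1f5 KO, with a gap between the groups. It rose (log2 fold change 1.21 ± 0.14 SE, adjusted p = 0.000721). Among Il1f9 libraries it stood at 90.4 and 136 CPM in WT and 62 and 55.9 in KO and fell (log2 fold change -0.83 ± 0.17 SE, adjusted p = 0.00697). That second call ended without WT 2 or KO 2 (adjusted p = 0.0604 to 0.0625). Mmp9, gelatinase B of neutrophils and macrophages, had 66.7 and 53.9 CPM in WT and 6.34 and 2.38 in KO of the Il1f9 line and fell (log2 fold change -3.71 ± 0.70 SE, adjusted p = 0.0127), a call that ended without WT 2 or KO 2 (adjusted p = 0.0515 to 0.0768). Its 10.5, 12 and 25.4 CPM in WT and 21.2, 51.5 and 36.7 in the KO-labelled libraries of the Il1f5 line overlapped (log2 fold change 1.12 ± 0.50 SE, adjusted p = 0.146).

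**Figure D2:**
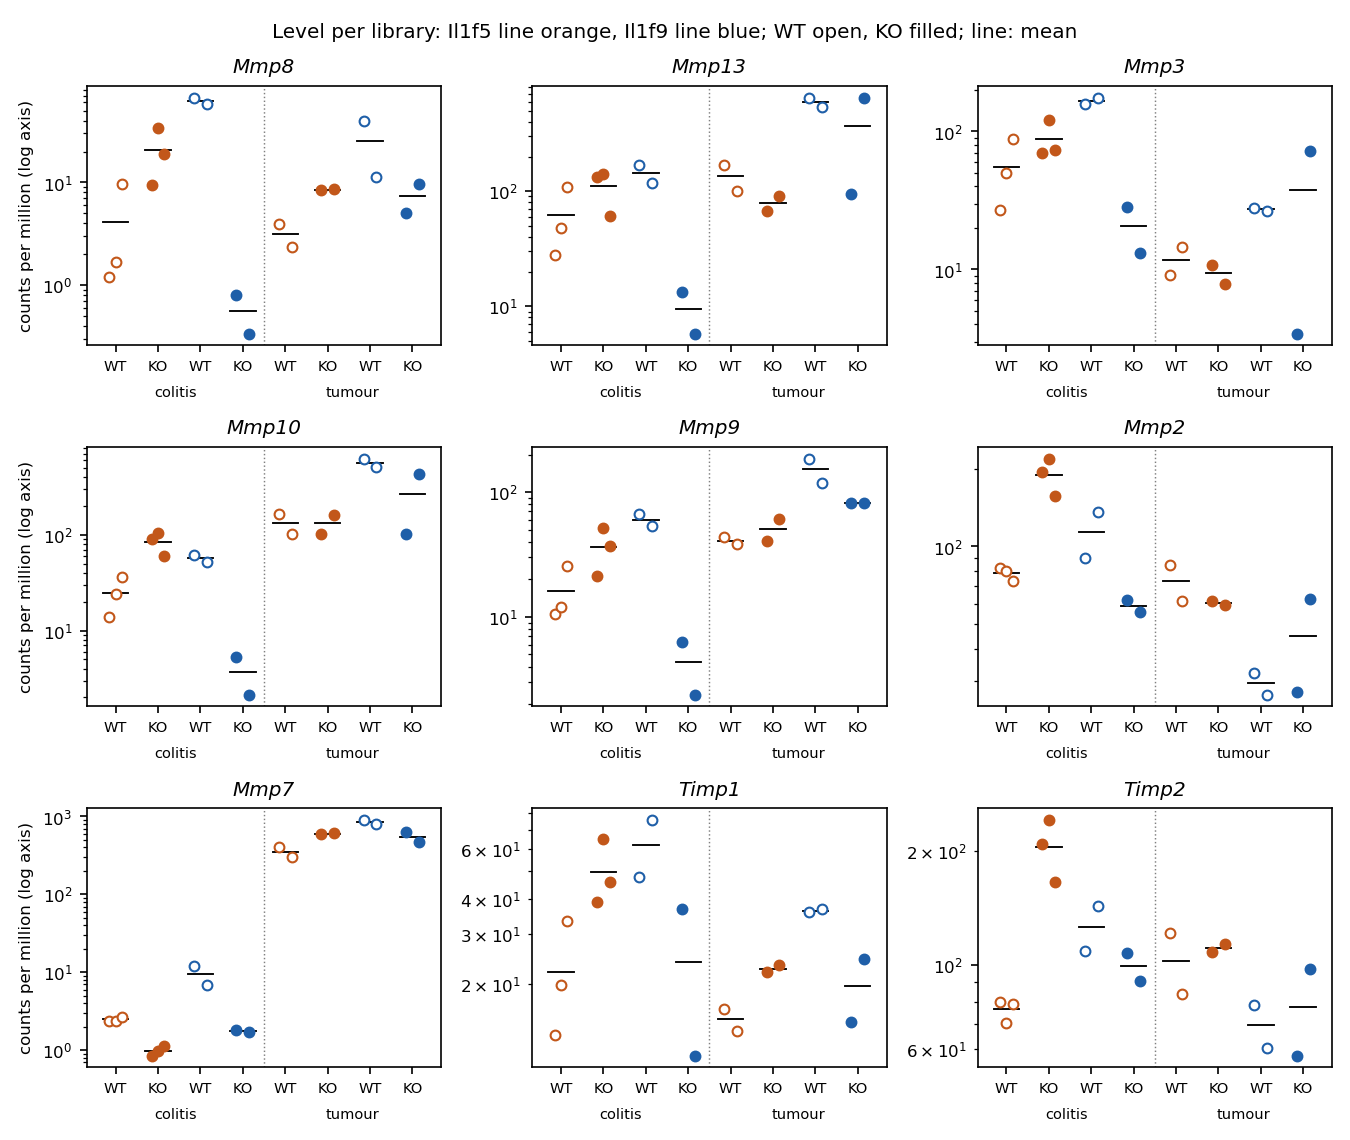
CPM (log axis, a different range in each panel) of 9 members in each of the 18 libraries, by tissue, line and labelled genotype, with open points for WT, filled points for KO and a bar at the mean. In colitis the Il1f9 KO libraries are the lowest for Mmp8, Mmp13, Mmp10 and Mmp9, and Mmp7 is at 0.858 to 12.1 CPM in colitis against 304 to 906 in tumours.

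Stromelysins cut proteoglycans and activate other MMPs. Mmp10, stromelysin 2 of migrating epithelium, stood at 13.8, 24.2 and 36.5 CPM in WT and 91, 104 and 59.6 in the libraries labelled Il1f5 KO, and at 62 and 52 in WT and 5.25 and 2.14 in KO of the Il1f9 line. The groups of either line did not overlap. Mmp10 rose in the first (log2 fold change 1.70 ± 0.41 SE, adjusted p = 0.0262) and fell in the second (log2 fold change -3.87 ± 0.60 SE, adjusted p = 0.00593). The rise was not called without WT 1, WT 2, KO 1 or KO 2 (adjusted p = 0.0523 to 0.0889) or without the filter on low counts (adjusted p = 0.0562). The fall held without each library. Mmp3, stromelysin 1, fell in Il1f9 KO from 157 and 175 CPM to 28.4 and 13.1 (log2 fold change -2.90 ± 0.65 SE, adjusted p = 0.0244), a call that ended without WT 1, WT 2, KO 1 or KO 2 (adjusted p = 0.0614 to 0.126). Mmp3 held 27, 49.9 and 88.7 CPM in WT and 69.3, 122 and 73.5 in the libraries labelled Il1f5 KO, which overlapped (log2 fold change 0.61 ± 0.49 SE, adjusted p = 0.403). Mmp11, stromelysin 3 of stromal cells, rose from 3.23, 2.11 and 1.47 CPM to 5.72, 6.09 and 4.52 in the Il1f5 line (log2 fold change 1.21 ± 0.28 SE, adjusted p = 0.0118), a call that ended without WT 2 (adjusted p = 0.0504). Its 3.85 and 5.79 CPM in WT and 2.63 and 2.92 in KO of the Il1f9 line gave no call.

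Mmp7 and Mmp12 are matrilysin, an epithelial protease that activates defensins in Paneth cells, and the metalloelastase of macrophages. Mmp7 was low in colitis and, by the labels, fell in both lines. It stood at 2.38, 2.41 and 2.69 CPM in WT and 0.858, 0.972 and 1.13 in the libraries labelled Il1f5 KO (log2 fold change -1.39 ± 0.29 SE, adjusted p = 0.00721). Among Il1f9 libraries it stood at 12.1 and 6.92 CPM and 1.83 and 1.7 (log2 fold change -2.34 ± 0.32 SE, adjusted p = 0.000928). The groups did not overlap in either line, and both calls held without each library. Of the 8 listed Paneth cell markers only 3 passed the filter in colitis, and 2 of them rose in the Il1f5 line and 1 in the Il1f9 line. Their sum over the list was 25.9 to 46.2 CPM in WT and 413 to 1088 with the Il1f5 KO label, and 14.6 to 17.8 and 204 to 508 in the Il1f9 line.

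Mmp12 fell in Il1f9 KO from 5.67 and 3.81 CPM to 1.37 and 0.243 (log2 fold change -2.49 ± 0.58 SE, adjusted p = 0.0141), a call that ended without WT 1 or KO 2 (adjusted p = 0.053 to 0.0654). All 6 colitis libraries of the Il1f5 line held 1.43 to 3.11 CPM of it and it was not called. Of the 8 macrophage and monocyte markers, 7 fell in Il1f9 KO, with summed levels of 794 to 1153 CPM in WT and 216 to 262 in KO. In the Il1f5 line 1 rose and 1 fell, with 387 to 446 CPM in WT and 419 to 476 in the KO-labelled libraries. No marker of the list was at 0 throughout a group, and the part of macrophages in the Mmp12 difference was not tested.

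Membrane-type MMPs are anchored at the cell surface, and Mmp14 activates Mmp2 there. Mmp14, Mmp15 and Mmp17 rose in the libraries labelled Il1f5 KO. Mmp14 went from 134, 153 and 149 CPM to 242, 277 and 227 (log2 fold change 0.71 ± 0.12 SE, adjusted p = 0.00302), with no overlap. Mmp15 went from 166, 174 and 157 CPM to 251, 240.2 and 230.3 (log2 fold change 0.47 ± 0.07 SE, adjusted p = 0.00253). Mmp17 went from 7.72, 9.45 and 11.2 CPM to 17.5, 18 and 15.8 (log2 fold change 0.79 ± 0.17 SE, adjusted p = 0.00905). All 3 calls held without each library. With Il1f9 KO none of these 3 was called, and Mmp14 stood at 197 and 246 CPM in WT and 186 and 145 in KO (log2 fold change -0.31 ± 0.14 SE, adjusted p = 0.151). Mmp25, the membrane-type MMP of leukocytes, fell there from 7.14 and 7.24 CPM to 0.457 and 0.243 (log2 fold change -4.26 ± 0.55 SE, adjusted p = 0.000724), the largest fall among the calls that held without each library. Among Il1f5 libraries its 1.96, 2.35 and 3.53 CPM in WT overlapped 2.4, 6.19 and 2.99. Mmp16 and Mmp24 were called in neither line.

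Among the other MMPs, Mmp28, epilysin of epithelium, fell in both lines by the labels. It went from 22.5, 25.3 and 22.1 CPM to 18.2, 14.6 and 16.2 with the Il1f5 KO label (log2 fold change -0.58 ± 0.14 SE, adjusted p = 0.0142) and from 24.7 and 33 to 7.25 and 9.92 in Il1f9 KO (log2 fold change -1.63 ± 0.18 SE, adjusted p = 0.000261). The first of these calls ended without WT 2 or KO 2 (adjusted p = 0.0566 to 0.0661). Mmp19 rose from 7.35, 9.02 and 11.7 CPM to 20.1, 25.4 and 15.3 in the Il1f5 line (log2 fold change 1.05 ± 0.25 SE, adjusted p = 0.0136) and fell from 16.7 and 28 to 7.88 and 5.59 in the Il1f9 line (log2 fold change -1.61 ± 0.31 SE, adjusted p = 0.00574). The Mmp19 rise ended without WT 1 or WT 2 (adjusted p = 0.0549 to 0.056), and its fall without KO 2 (adjusted p = 0.055). Mmp23 was higher in the Il1f5 line (log2 fold change 0.69 ± 0.18 SE, adjusted p = 0.019), a call that ended without WT 1, WT 2 or KO 1 (adjusted p = 0.055 to 0.0809). Mmp27 was higher there too, at 0.4 to 0.678 CPM against 0.106 to 0.126 (log2 fold change 2.10 ± 0.63 SE, adjusted p = 0.0335), a call that ended without WT 1, WT 2 or WT 3 (adjusted p = 0.0787 to 0.0998) and under DESeq2's Wald test (adjusted p = 0.0691).

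Of 7 tested ADAMTS proteases that cut versican and other large proteoglycans, 2 rose in the libraries labelled Il1f5 KO and 3 others fell in Il1f9 KO, and none was called in both lines. Adamts4 rose from 9.36, 14.5 and 24.7 CPM to 50.6, 106 and 42.7 in the first line (log2 fold change 1.96 ± 0.49 SE, adjusted p = 0.0296). The call ended without WT 1, WT 2 or KO 2 (adjusted p = 0.0574 to 0.0977), without the filter on low counts (adjusted p = 0.0583) and with the compared groups fitted alone (adjusted p = 0.0627). Adamts8 rose from 4.44, 3.61 and 4.29 CPM to 10.5, 11.3 and 6.89 (log2 fold change 1.15 ± 0.20 SE, adjusted p = 0.00396), which held without each library. Adamts1 covered 19.7, 30.8 and 68.5 CPM in WT and 125, 162 and 84.8 in the KO-labelled libraries, with no overlap but no call (log2 fold change 1.57 ± 0.55 SE, adjusted p = 0.0836). In Il1f9 KO, Adamts5, Adamts9 and Adamts15 fell. Adamts5 went from 9.58 and 13.3 CPM to 5.71 and 3.99 (log2 fold change -1.12 ± 0.34 SE, adjusted p = 0.04), Adamts9 from 18.6 and 33.2 to 10.1 and 5.11 (log2 fold change -1.66 ± 0.45 SE, adjusted p = 0.0354) and Adamts15 from 24.1 and 36.2 to 12.4 and 16.4 (log2 fold change -0.95 ± 0.20 SE, adjusted p = 0.00742). The Adamts5 call ended without WT 1, WT 2, KO 1 or KO 2 (adjusted p = 0.052 to 0.224). That of Adamts9 ended without WT 2 or KO 2 (adjusted p = 0.171 to 0.202) and without the filter on low counts (adjusted p = 0.119), and that of Adamts15 without WT 2 or KO 1 (adjusted p = 0.0668 to 0.0726). Adamts1 stood there at 54.9 and 126 CPM in WT and 56 and 33.1 in KO, and Adamts4 at 45 and 75.4 and 20.9 and 14.8. Neither was called (log2 fold change -0.90 ± 0.67 SE, adjusted p = 0.401 and log2 fold change -1.64 ± 0.59 SE, adjusted p = 0.101).

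Adamts2, Adamts3 and Adamts14 remove the amino-terminal propeptide of procollagens. Adamts2 rose from 19.6, 17.3 and 18.2 CPM to 35.4, 32.9 and 25.6 in the Il1f5 line (log2 fold change 0.70 ± 0.15 SE, adjusted p = 0.00736) and fell from 21.6 and 31.3 to 15.5 and 12.6 in the Il1f9 line (log2 fold change -0.80 ± 0.18 SE, adjusted p = 0.0116). The rise held without each library and the fall ended without WT 2 or KO 2 (adjusted p = 0.0948 to 0.101). Adamts14 was higher in the libraries labelled Il1f5 KO (log2 fold change 1.02 ± 0.31 SE, adjusted p = 0.0329), a call that ended without WT 1, WT 2, WT 3, KO 1 or KO 2 (adjusted p = 0.0722 to 0.117). Adamts3 was lower in Il1f9 KO (log2 fold change -1.50 ± 0.47 SE, adjusted p = 0.0435), a call that ended without WT 2, KO 1 or KO 2 (adjusted p = 0.152 to 0.371) and with the compared groups fitted alone (adjusted p = 0.0675).

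Adamts7 and Adamts12, which cut cartilage oligomeric matrix protein, were each called in both lines, in opposite directions by the labels. Adamts7 stood at 5.08, 5.29 and 4.84 CPM in WT and 15.4, 16.6 and 11.6 in the libraries labelled Il1f5 KO (log2 fold change 1.46 ± 0.17 SE, adjusted p = 0.000818), and at 8.26 and 11.7 and 3.6 and 3.6 in the Il1f9 line (log2 fold change -1.36 ± 0.22 SE, adjusted p = 0.00198). Neither call ended when a library was left out. Adamts12 rose from 3.23, 3.43 and 2.94 CPM to 5.15, 5.88 and 4.69 (log2 fold change 0.65 ± 0.21 SE, adjusted p = 0.0434) and fell from 4.97 and 7.99 to 2.06 and 1.75 (log2 fold change -1.65 ± 0.27 SE, adjusted p = 0.0022). Its fall held without each library. Its rise ended without WT 1, WT 2, WT 3, KO 1 or KO 2 (adjusted p = 0.0799 to 0.132) and without the filter on low counts (adjusted p = 0.0673). Adamts6, which acts on microfibrils, and Adamts19 were higher in the Il1f5 line (log2 fold change 1.04 ± 0.29 SE, adjusted p = 0.0253 and log2 fold change 1.12 ± 0.26 SE, adjusted p = 0.0127). The Adamts6 call ended without WT 1, WT 2, WT 3, KO 1 or KO 2 (adjusted p = 0.0501 to 0.0942) and the Adamts19 call without WT 1 or KO 1 (adjusted p = 0.0508 to 0.0519). Adamts10, Adamts16, Adamts17, Adamts18 and Adamts20 were called in neither line.

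Among the inhibitors Timp2, which also helps Mmp14 to activate Mmp2, was called in the Il1f5 line. It stood at 80.0, 70.3 and 78.9 CPM in WT and 208, 241 and 166 in the libraries labelled Il1f5 KO, with no overlap, and rose (log2 fold change 1.36 ± 0.13 SE, adjusted p = 0.000369). It had the smallest adjusted p of all members in that comparison, and the call held without each library. Its 109 and 143 CPM in WT and 108 and 90.6 in KO of the Il1f9 line gave no call (log2 fold change -0.23 ± 0.16 SE, adjusted p = 0.34). Timp1, the cytokine-induced inhibitor, had 13.3, 19.9 and 33.3 CPM in WT and 38.9, 65.1 and 45.7 in the KO-labelled libraries of the Il1f5 line, with no overlap but no call (log2 fold change 1.10 ± 0.52 SE, adjusted p = 0.166). Timp1 of the Il1f9 line had 47.7 and 76 CPM in WT and 36.9 and 11.2 in KO (log2 fold change -1.25 ± 0.64 SE, adjusted p = 0.223). Timp3, which binds to the matrix and inhibits ADAMTS proteases as well, fell in Il1f9 KO from 59 and 70.4 CPM to 40.7 and 30.3 (log2 fold change -0.76 ± 0.21 SE, adjusted p = 0.0291). The Timp3 call ended without WT 1, WT 2 or KO 2 (adjusted p = 0.0609 to 0.175) and without the filter on low counts (adjusted p = 0.0793). Timp4 held 0.421 to 2.35 CPM over all libraries and was called in neither line.

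The ratio of summed MMP to summed TIMP FPKM within a library gives both sides together. It was 2.89 to 3.34 in WT and 2.57 to 2.95 in the KO-labelled colitis libraries of the Il1f5 line, which overlapped although both sums were higher in the latter. The MMP sum there was 132 to 219 FPKM in WT and 260.0 to 379 with the KO label. For the Il1f9 line the MMP sum was 368 and 342 FPKM in WT and 131 and 106 in KO. The ratio was 4.08 and 2.82 in WT and 1.69 and 2.57 in KO. These values are a description without a test.

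Stromal and vessel markers moved with Mmp2, Mmp14, Timp2 and several ADAMTS genes in the Il1f5 line. In the Il1f9 line they did so only in part, and smooth muscle markers went the other way from Mmp2. In the libraries labelled Il1f5 KO, 8 of 10 fibroblast, 6 of 8 smooth muscle, 8 of 8 endothelial and 7 of 8 enteric neuron and glia markers rose. The fibroblast sum was 663 to 724 CPM in WT and 1287 to 1635 with the KO label, the smooth muscle sum 2187 to 2429.9 and 3687 to 5547, the endothelial sum 145 to 159 and 257 to 338, and the neuron and glia sum 38.9 to 53.9 and 80.7 to 134. In Il1f9 KO, 4 of 10 fibroblast and 4 of 8 endothelial markers fell, while 8 of 8 smooth muscle and 4 of 8 epithelial markers rose. The fibroblast sum there was 924 to 1316 CPM in WT and 633 to 804 in KO, the endothelial sum 211 to 293 and 126 to 138, and the smooth muscle sum 1603 to 3047 and 4434 to 4899.6. None of these markers was at 0 throughout a colitis group. The part of tissue make-up in the differences between members was not tested.

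**Figure D3:**
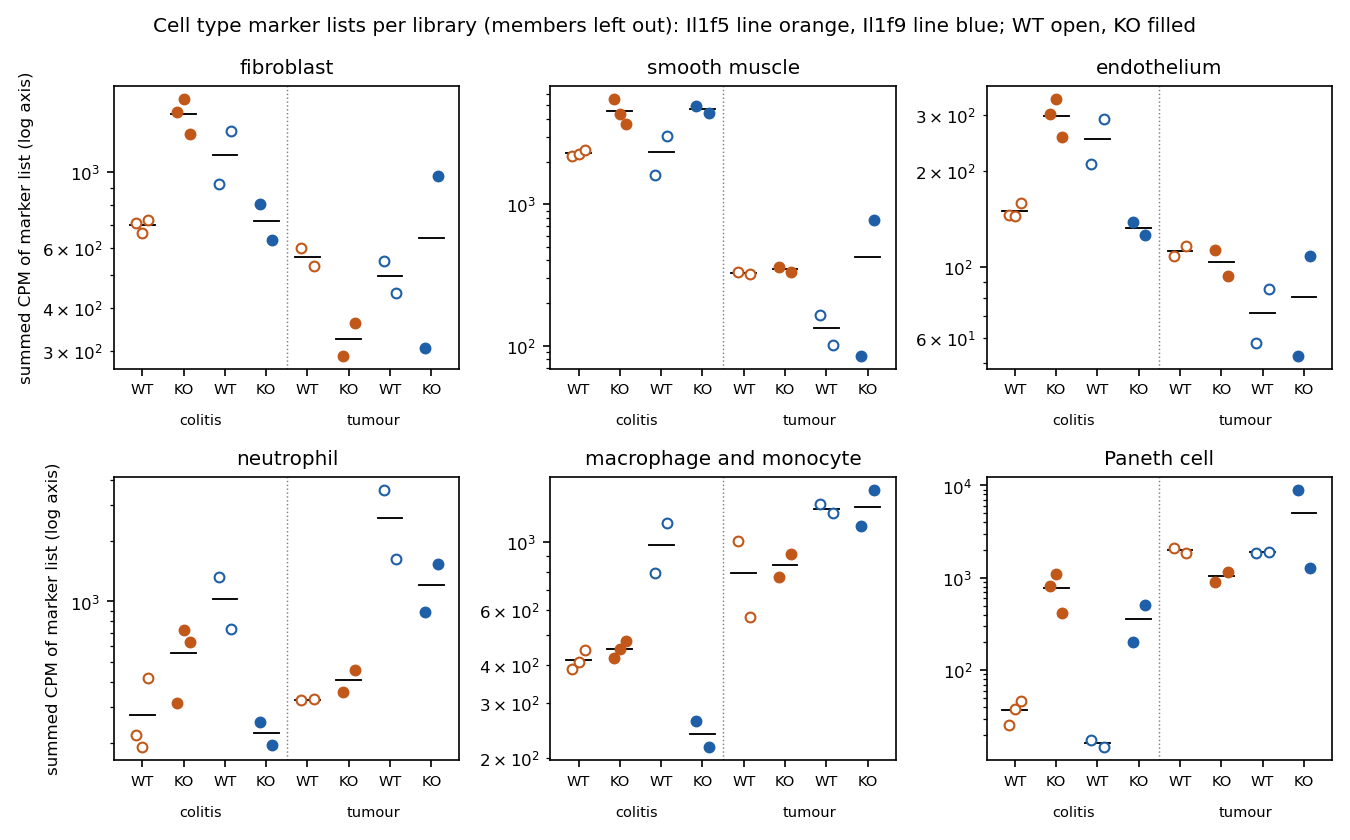
Summed CPM (log axis) of 6 cell type marker lists, members left out, in each library, by tissue, line and labelled genotype, with open points for WT, filled points for KO and a bar at the mean. The fibroblast and endothelial sums of the KO-labelled colitis libraries are higher than WT in the Il1f5 line and lower in the Il1f9 line, and smooth muscle sums are lower in all 8 tumour libraries than in all 10 colitis libraries.

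Genes that act on or with the members were counted in the same fit, by the labels. Of 11 tested matrix substrates, 9 rose with the Il1f5 KO label and 8 fell in Il1f9 KO. Vwf, the von Willebrand factor cut by Adamts13, changed by 1.18 and -1.25 (log2, adjusted p = 0.000987 and 0.00126), and elastin, Eln, by 1.24 and -0.80 (adjusted p = 0.001 and 0.0117). Versican, Vcan, fell in Il1f9 KO (-1.63, adjusted p = 0.000767). Of 7 tested genes of plasminogen activation, Plat, Plau and Serpine2 rose in the Il1f5 line (1.55, 1.16 and 1.86) and Plat and Serpinb2 fell in the Il1f9 line (-1.67 for Plat). Serpinb2 had 41 counts over the 2 WT libraries of that line and 0 in both KO ones, at least 13.6-fold lower with a floor of 3 counts over the KO group. Among 10 other MMP regulators, Reck, a membrane-bound MMP inhibitor, and Thbs2, thrombospondin 2, rose in the Il1f5 line (1.03 and 1.40, adjusted p = 0.00308 and 0.00471), with Spock1 and Spock2. Lcn2, which binds Mmp9, and Furin, which activates membrane-type MMPs, fell in the Il1f9 line (-5.00 and -0.62), while Bsg rose (0.55).

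Related protease families were counted in the same fit. Of 9 ADAM sheddases, Adam8 rose and Adam17 fell in the Il1f5 line (1.12 and -0.35), and 6 fell in the Il1f9 line, among them Adam8 and Adam17 (-2.70 and -0.58). Of 6 ADAMTS-like proteins, which share the matrix-binding parts without the protease, 4 rose in the first, with Adamtsl1 at 1.38 and Adamtsl5 at 0.94. In the second 3 fell, with Adamtsl4 at -0.90 and Papln at -1.45. Adamtsl2 was called in both (1.61 and -2.60). Of 6 tested astacins and enhancers, Bmp1, the procollagen C-proteinase, rose by 1.06 and Mep1a by 0.66 with the Il1f5 KO label, and Bmp1 fell in Il1f9 KO (-0.81).

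In the tumours no member was called between KO and WT in either line. Of 36 tested members, 0 were higher and 0 lower in both, beside 0.0112% higher and 0.0168% lower of all genes in the Il1f5 line and 0.0056% and 0.0112% in the Il1f9 line. At an unadjusted p under 0.05 there were 5 members in the Il1f5 line and 7 in the Il1f9 line. DESeq2's Wald test called 2 higher in the Il1f5 line, Mmp7 and Mmp8 (adjusted p = 0.00184 and 0.0347), and 3 lower in the Il1f9 line, Mmp8, Mmp9 and Adamts4 (adjusted p = 0.0391, 0.0488 and 0.0373). The difference between the lines was called for 0 members by edgeR, beside 0.0784% of all genes, with 8 at an unadjusted p under 0.05, and for 4 by DESeq2. All shares of all genes here are those of edgeR. That of DESeq2 is not given, so its calls cannot be set against a share.

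Of the 6 lists of pathway genes, edgeR called 0 genes between KO and WT tumours of either line. At an unadjusted p under 0.05 there were 7 of 44 in the Il1f5 line and 9 of 44 in the Il1f9 line. In the Il1f5 line the smallest p of each list belonged to Vcan (-1.43), Bsg (0.85), Serpinf2 (2.16), Adam15 (0.65), Adamtsl4 (-0.38) and Mep1b (-0.90), with adjusted p from 0.0763 to 0.388. Next in the lists came Fn1, Furin, Serpinb2, Adam8, Adamtsl1 and Mep1a. In the Il1f9 line they belonged to Plat (-1.66), Lcn2 (-1.58), Fn1 (-0.74), Adam19 (-0.65), Pcolce (0.80) and Adamtsl1 (1.56), with adjusted p from 0.348 to 0.636. Next came Serpinb2, Thbs1, Eln, Adam33, Pcolce2 and Adamtsl5.

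The values by tumour show where the groups separated. Mmp7 stood at 405 and 304 CPM in WT and 593 and 608 in the tumours labelled Il1f5 KO, which did not overlap (log2 fold change 0.93 ± 0.20 SE, adjusted p = 0.0792). Mmp8 stood at 3.91 and 2.35 CPM in WT and 8.45 and 8.58 with the KO label (log2 fold change 1.61 ± 0.63 SE, adjusted p = 0.191). Timp1 stood at 16.4 and 13.7 CPM in WT and 22.2 and 23.3 with the KO label (log2 fold change 0.76 ± 0.24 SE, adjusted p = 0.111). The 2 Il1f9 KO tumours differed from each other. Mmp3 stood at 3.43 and 72.3 CPM in KO 1 and KO 2 and at 27.9 and 26.7 in WT (log2 fold change 0.44 ± 1.24 SE, adjusted p = 0.948). Mmp13 stood at 93.8 and 644 CPM in KO and 649 and 539 in WT (log2 fold change -0.72 ± 0.87 SE, adjusted p = 0.851), and Mmp10 at 102 and 434 in KO and 624 and 511 in WT (log2 fold change -1.12 ± 0.67 SE, adjusted p = 0.689). In each of these 3 genes KO 1 lay below both WT tumours, while KO 2 lay above them for Mmp3, between them for Mmp13 and below them for Mmp10.

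Of 33 members with a mean of at least 1 CPM in those KO tumours, 14 differed over 2-fold between the pair, against 2 to 4 in the other pairs of tumours. Summed smooth muscle markers were 84.8 CPM in KO 1 and 767 in KO 2, and summed Paneth cell markers 8854 and 1267. Without KO 2, the log2 fold changes in KO were -3.01 for Mmp3, -2.68 for Mmp13 and -1.32 for Timp1, with the lone KO tumour assumed to vary like the other groups. Mmp9 did not share the split, at 81.2 and 82.2 CPM in KO and 185 and 119 in WT (log2 fold change -0.93 ± 0.24 SE, adjusted p = 0.388). Adamts4 had 3.65 and 6.37 CPM in KO and 16.6 and 10.0 in WT (log2 fold change -1.45 ± 0.37 SE, adjusted p = 0.369). Timp1 had 14.7 and 24.6 CPM in KO and 36 and 36.7 in WT (log2 fold change -0.91 ± 0.23 SE, adjusted p = 0.369), and Mmp7 633 and 473 in KO and 906 and 798 in WT (log2 fold change -0.65 ± 0.20 SE, adjusted p = 0.442).

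Many members differed between tumours and inflamed colon, as did many of all tested genes. Among WT libraries, 9 of 42 tested members were higher in tumours and 17 lower, beside 30.1% and 31.1% of all genes. Among KO libraries, which share no library with the WT ones, 13 were higher and 17 lower, beside 32.7% and 30.7%. The share called higher was below that of all genes in WT and near it in KO, and the share lower was above it in both. By family in WT, 8 of 20 MMPs were higher and 6 lower, with a median log2 fold change of -0.06, near the -0.03 of all genes. Of 18 ADAMTS genes 1 was higher and 11 lower, with a median of -1.17. Of the 4 TIMPs 0 were called in WT over both lines, with 0 at an unadjusted p under 0.05 and 0 by DESeq2's Wald test. With the Il1f5 labels exchanged, 8 were higher and 20 lower in WT and 15 and 12 in KO. Of all genes, 67.3% in WT and 56.9% in KO were then called in either direction. In WT 25 of the 26 and in KO 25 of the 30 members called as labelled kept call and direction. The exceptions were Mmp13 in WT and Mmp2, Adamts3, Adamts14, Adamts15 and Timp2 in KO. Tissue, treatment and any difference in how the tables were made cannot be told apart here.

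Since the tumour tables are 1 per line, the difference was also fitted within each line. Mmp7, Mmp11, Mmp12, Mmp14, Mmp20 and Adamts17 were higher, and Mmp16, Mmp17, Adamts8, Adamts18 and Adamts19 lower, in tumours of both lines and both genotypes. Mmp10 was called higher in WT of both lines, and Adamts1, Adamts5 and Adamts9 lower.

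**Figure D4:**
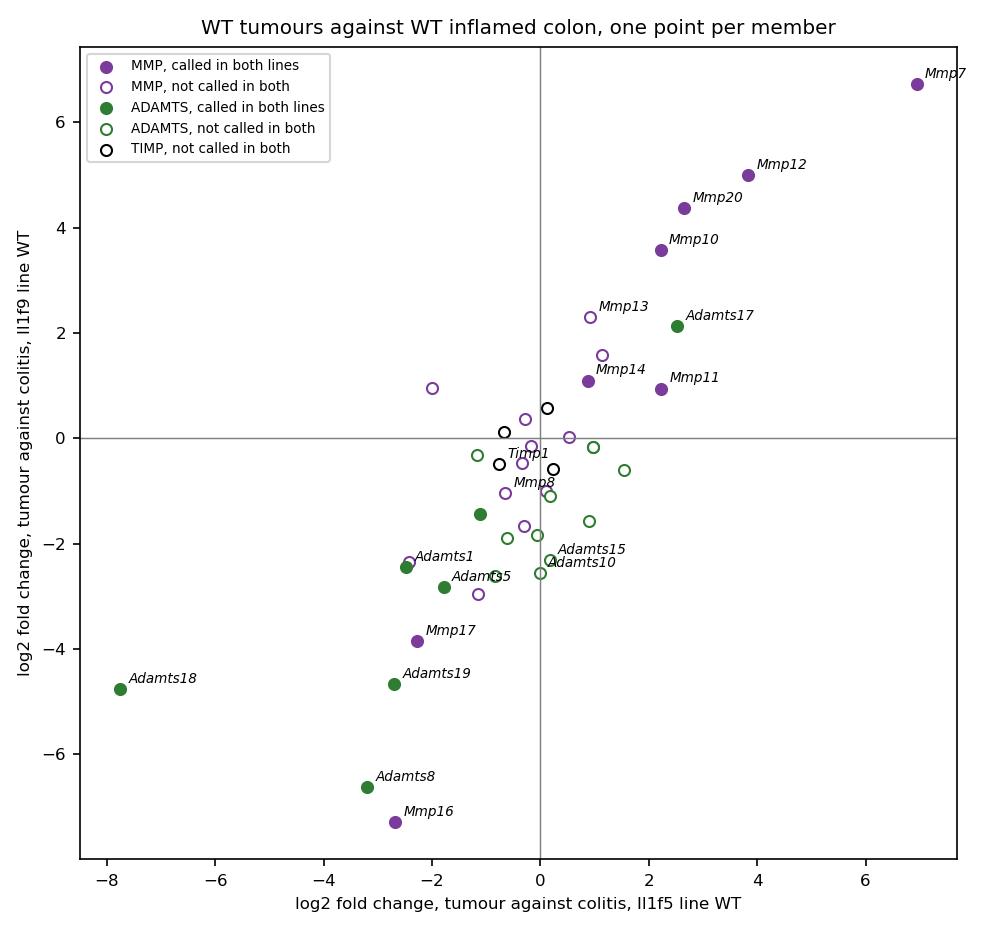
Log2 fold change of WT tumours against WT inflamed colon for 42 members, fitted in the Il1f5 line (horizontal axis) and in the Il1f9 line (vertical axis), with MMPs in purple, ADAMTS genes in green, TIMPs in black and filled points for members called in both lines. Mmp7 is at the top right (6.94 and 6.73), and the filled green points lie at the lower left apart from Adamts17. Positions of members at or near 0 counts in tumours, such as Mmp16 and Adamts18, depend on the prior count of the fit.

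Mmp7 showed the largest rise. It went from 2.38, 2.41 and 2.69 CPM in WT colitis to 405 and 304 in WT tumours of the Il1f5 line, and from 12.1 and 6.92 to 906 and 798 in the Il1f9 line, over both of which the log2 fold change was 6.84 ± 0.19 (SE, adjusted p = 1.17e-12). In KO it was 8.86 ± 0.21 (adjusted p = 3.85e-13). Mmp12 rose from 2.49, 2.29 and 2.44 CPM to 55.6 and 23.7 in the Il1f5 line and from 5.67 and 3.81 to 134 and 121 in the Il1f9 line (log2 fold change 4.42 ± 0.44 SE, adjusted p = 4.6e-06). Of the 8 Paneth cell markers, 8 were higher in WT tumours, with sums of 25.9 to 46.2 and 14.6 to 17.8 CPM in WT colitis of the lines and 1854 to 2125 and 1875 to 1905 in WT tumours. Defa17, Defa30 and Defa22 were at 0 in every WT colitis library of the Il1f5 line, and these 3, Defa24 and Mptx2 in those of the Il1f9 line. The part of Paneth cells in the Mmp7 difference was not tested. Of the 8 macrophage and monocyte markers, 2 were higher and 2 lower in WT tumours, with sums of 572 to 1008 CPM in the Il1f5 line and 1234 to 1321 in the Il1f9 line.

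Mmp10, Mmp11 and Mmp14 rose as well. Mmp10 reached 164 and 102 CPM in WT tumours of the Il1f5 line and 624 and 511 in the Il1f9 line, all above every WT colitis library (log2 fold change 2.89 ± 0.45 SE, adjusted p = 0.00019). With the KO libraries of the Il1f5 line alone its rise was not called (0.67, adjusted p = 0.336). Mmp11 (log2 fold change 1.58 ± 0.23 SE, adjusted p = 2.34e-05) and Mmp14 (log2 fold change 0.98 ± 0.12 SE, adjusted p = 2.72e-06) were higher by smaller steps. Mmp20, enamelysin, was low, at 1.01 and 0.801 CPM in WT tumours of the Il1f5 line and 1.11 and 1.84 in those of the Il1f9 line (log2 fold change 3.52 ± 0.56 SE, adjusted p = 0.00012). It had 10 counts over all 5 WT colitis libraries and 0 in all 5 KO ones, against 18 to 29 in each of the 4 KO tumours. With a floor of 3 counts over the KO colitis group, this is at least 40.4-fold higher.

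Mmp13, Mmp9, Mmp3 and Mmp2 were called over both lines and are given by line as well, without a test of the difference between the lines. Mmp13 was higher in WT tumours (log2 fold change 1.61 ± 0.57 SE, adjusted p = 0.0287), with 2.30 in the Il1f9 line and 0.92 in the Il1f5 line (adjusted p = 0.0397 and 0.352), and the call over both lines ended without colitis Il1f5 WT 2, colitis Il1f9 WT 1, colitis Il1f9 WT 2, tumour Il1f5 WT 1 or tumour Il1f9 WT 1 (adjusted p = 0.0554 to 0.101). Mmp9 was higher (log2 fold change 1.37 ± 0.34 SE, adjusted p = 0.00471), with 1.59 in the Il1f9 line and 1.14 in the Il1f5 line (adjusted p = 0.0189 and 0.0686). Mmp3 fell, from 27 to 175 CPM over the WT colitis libraries to 9.06 to 27.9 over the WT tumours, whose highest library overlapped the lowest of colitis (log2 fold change -2.39 ± 0.69 SE, adjusted p = 0.0114). Neither line alone called it (adjusted p = 0.0666 and 0.0621), and the call ended without tumour Il1f5 WT 1 (adjusted p = 0.0523). Mmp2 was lower (log2 fold change -0.99 ± 0.21 SE, adjusted p = 0.00102), with -1.67 in the Il1f9 line and -0.30 in the Il1f5 line (adjusted p = 0.000444 and 0.406). Mmp8 was not called (log2 fold change -0.85 ± 0.63 SE, adjusted p = 0.263). Of the 8 neutrophil markers, 3 were higher in WT tumours, with sums of 324 to 329 CPM in the Il1f5 line and 1619 to 3541 in the Il1f9 line. Their part in the Mmp9 and Mmp13 differences was not tested.

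Mmp16 and Mmp17 had the lowest fitted log2 fold changes among MMPs. Mmp17 went from 7.72, 9.45 and 11.2 CPM in WT colitis to 2.35 and 2.12 in WT tumours of the Il1f5 line and from 11.7 and 18.3 to 1.16 and 0.562 in the Il1f9 line (log2 fold change -3.06 ± 0.23 SE, adjusted p = 2.14e-08). Mmp16 went from 0.421 to 1.11 CPM to 0 to 0.224 (log2 fold change -4.98 ± 0.89 SE, adjusted p = 0.000198). Every WT tumour but Il1f5 WT 1 held 0 counts of Mmp16, so the size of its fall depends on the prior count of the fit. Mmp23 and Mmp27 were near the threshold (adjusted p = 0.0492 and 0.0386), and both calls ended without several libraries, the first without colitis Il1f5 WT 1, colitis Il1f5 WT 3, colitis Il1f9 WT 2, tumour Il1f5 WT 1, tumour Il1f5 WT 2, tumour Il1f9 WT 1 or tumour Il1f9 WT 2 (adjusted p = 0.0511 to 0.232) and the second without colitis Il1f5 WT 1, colitis Il1f5 WT 2, colitis Il1f5 WT 3, colitis Il1f9 WT 1, colitis Il1f9 WT 2, tumour Il1f5 WT 2 or tumour Il1f9 WT 1 (adjusted p = 0.0521 to 0.127). Mmp23 was 0.11 in the Il1f5 line alone.

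ADAMTS genes were mostly lower in tumours. Adamts8 went from 4.44, 3.61 and 4.29 CPM in WT colitis to 0.447 and 0.572 in WT tumours of the Il1f5 line and from 3.6 and 3.86 to 0.0527 and 0 in the Il1f9 line (log2 fold change -4.91 ± 0.38 SE, adjusted p = 2.66e-08). Adamts1 went from 19.7, 30.8 and 68.5 CPM to 9.11 and 7.27 in the Il1f5 line and from 54.9 and 126 to 14.6 and 12.9 in the Il1f9 line (log2 fold change -2.46 ± 0.44 SE, adjusted p = 0.000531). Adamts5 fell too (log2 fold change -2.31 ± 0.36 SE, adjusted p = 4.87e-05), as did Adamts9 (log2 fold change -1.28 ± 0.25 SE, adjusted p = 0.000461). Adamts4, Adamts15, Adamts2, Adamts3 and Adamts10 were called lower over both lines but not in the Il1f5 line alone, with values there of -0.62, 0.17, -0.84, -0.07 and -0.01 against -1.90, -2.31, -2.62, -1.84 and -2.55 in the Il1f9 line. The Adamts3 call ended without colitis Il1f5 WT 1, colitis Il1f9 WT 2, tumour Il1f5 WT 1, tumour Il1f5 WT 2, tumour Il1f9 WT 1 or tumour Il1f9 WT 2 (adjusted p = 0.0586 to 0.202). Adamts19 was near 0 in tumours (log2 fold change -3.68 ± 0.53 SE, adjusted p = 1.93e-05). Adamts18 had 123 counts over the 5 WT colitis libraries and 1 over the 4 WT tumours, a ratio of 93.1 after scaling to the totals (exact 95% counting interval 16.4 to 3705, counting error only). Adamts17 alone among ADAMTS genes was called higher in WT over both lines, from 2.06 to 4.81 CPM over colitis to 28.8 and 17.7 in tumours of the Il1f5 line and 9.28 and 15.2 in those of the Il1f9 line (log2 fold change 2.33 ± 0.27 SE, adjusted p = 1.93e-06). In WT of the Il1f5 line alone, Adamts6 and Adamts7 were called higher too (1.55 and 0.97, adjusted p = 0.00842 and 0.00307). Their values in the Il1f9 line were -0.59 and -0.17, not called.

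Smooth muscle, fibroblast and glial markers moved with the ADAMTS genes. In WT tumours 8 of 8 smooth muscle, 7 of 10 fibroblast, 6 of 8 endothelial and 7 of 8 neuron and glia markers fell. Ret, the remaining neuron and glia marker, rose. The neuron and glia sum overlapped between the tissues. It was 38.9 to 53.9 and 73.4 to 97.2 CPM in WT colitis of the lines and 35.2 to 45.4 and 82.8 to 84.6 in WT tumours. The smooth muscle sum was 2187 to 2429.9 and 1603 to 3047 CPM in WT colitis of the lines and 320.3 to 332 and 101 to 164 in WT tumours. The fibroblast sum in WT tumours was 531 to 600.5 and 443 to 549 CPM. Of 7 tested squamous markers 6 rose, with sums of 22.5 to 31.2 and 25.5 to 29.6 CPM in WT colitis and 143 to 841 and 329 to 411 in WT tumours. Elavl4, a neuron marker, was at 0 in the WT tumours of the Il1f5 line, and Sox10, a glia marker, in those of the Il1f9 line. The colitis samples were pieces of colon and the tumours were taken as such, and the part of tissue make-up in these falls was not tested.

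Over both lines, only Timp2 of the inhibitors was called between the tissues, in KO as labelled and in WT with the Il1f5 labels exchanged. Among WT libraries of single lines, Timp3 was called lower in the Il1f5 line (-0.67, adjusted p = 0.0102) but not in the Il1f9 line (0.12). Timp2 was called lower in WT of the Il1f9 line (-0.59, adjusted p = 0.0478) but not in the Il1f5 line (0.22). Timp1 stood at 13.7 to 36.7 CPM over the 4 WT tumours (log2 fold change -0.63 ± 0.35 SE, adjusted p = 0.145), within the range of WT colitis. Timp2 was lower in KO tumours (log2 fold change -0.53 ± 0.16 SE, adjusted p = 0.0111), with -0.84 in the Il1f5 line and -0.21 in the Il1f9 line (adjusted p = 0.0049 and 0.49). The ratio of summed MMP to summed TIMP FPKM was 1.69 to 4.08 over the 10 colitis libraries and 12.4 to 24.9 over the 8 tumours. Mmp7 made up 38.4 to 70.0% of the summed MMP FPKM in tumours and 0.235 to 3.12% in colitis. Ratios and shares within a library do not depend on the scaling of the tables.

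**Figure D5:**
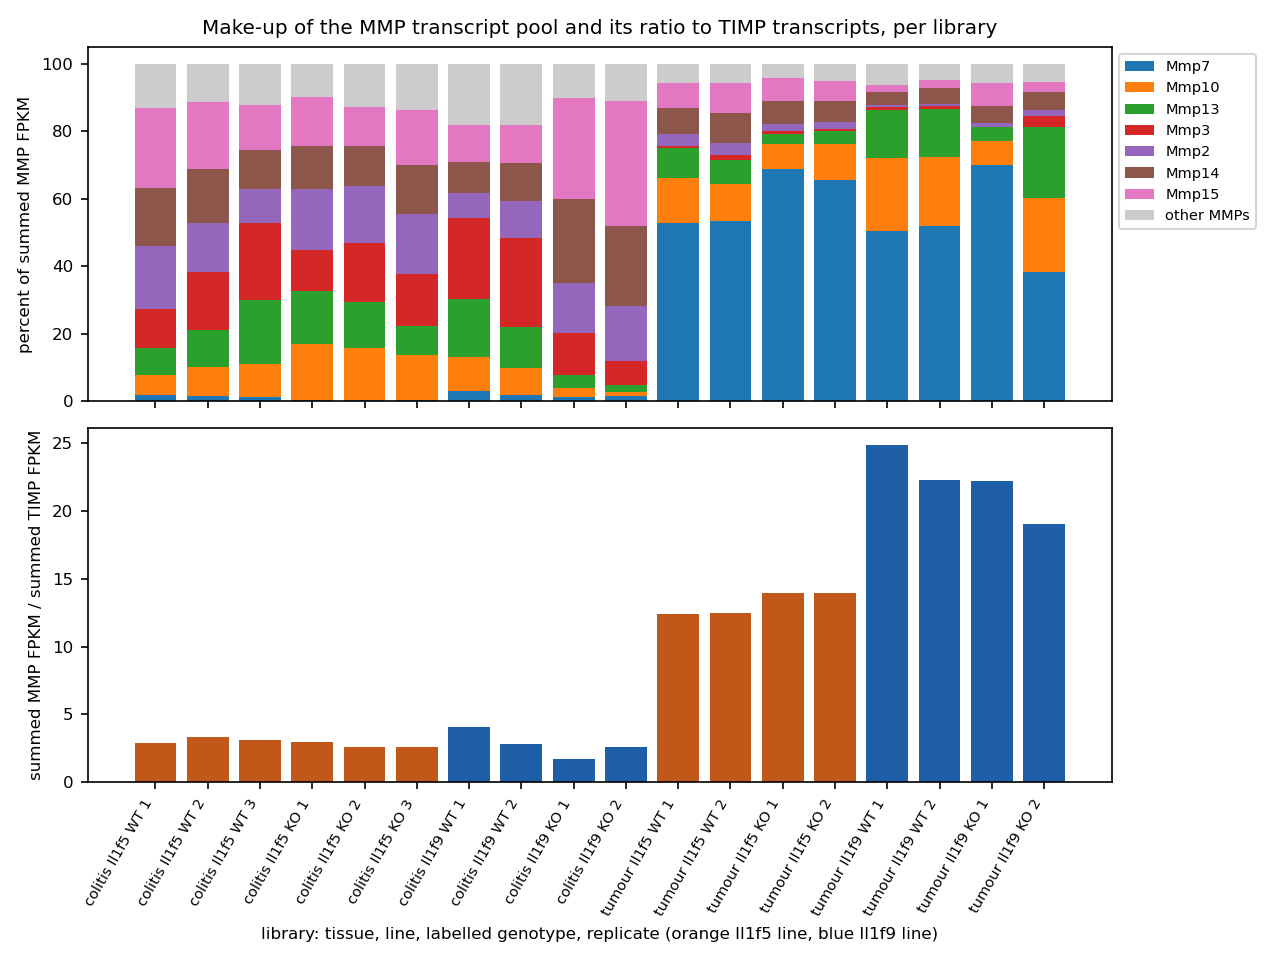
Above, the percent of the summed MMP FPKM that 7 MMPs and all others take in each library, and below, the ratio of summed MMP to summed TIMP FPKM per library, with orange for the Il1f5 line and blue for the Il1f9 line. Mmp7 takes 38.4 to 70.0% in the 8 tumours, and the ratio there is 12.4 to 24.9.

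Among KO libraries, Mmp15, Mmp25, Mmp28 and Adamts12 were higher and Adamts14 and Adamts20 lower in tumours, none of which was called in WT over both lines. Mmp28 rose in both lines (0.76 and 1.85, pooled log2 fold change 1.31 ± 0.17 SE, adjusted p = 6.53e-06). Mmp25 was 3.87 in the Il1f9 line and -0.28 in the Il1f5 line (adjusted p = 0.000243 and 0.658). Adamts12 was 1.64 and 0.36 (adjusted p = 0.00769 and 0.457), and its call over both lines ended without tumour Il1f9 KO 2 (adjusted p = 0.209). Mmp15 (log2 fold change 0.35 ± 0.12 SE, adjusted p = 0.0207) was called in neither line alone, and its call ended without colitis Il1f9 KO 1, colitis Il1f9 KO 2, tumour Il1f5 KO 1 or tumour Il1f9 KO 1 (adjusted p = 0.0515 to 0.226). Adamts20 was lower (log2 fold change -2.09 ± 0.60 SE, adjusted p = 0.00611) and was not called in the Il1f9 line alone (adjusted p = 0.0726). The Adamts14 call (log2 fold change -0.98 ± 0.38 SE, adjusted p = 0.0325) ended without colitis Il1f5 KO 1, colitis Il1f5 KO 2, colitis Il1f9 KO 1, tumour Il1f5 KO 1 or tumour Il1f9 KO 1 (adjusted p = 0.0561 to 0.138). Those of Adamts3 and Adamts15 ended without tumour Il1f5 KO 1 or tumour Il1f9 KO 1 (adjusted p = 0.0815 to 0.0841) and without colitis Il1f5 KO 1, colitis Il1f5 KO 2, colitis Il1f9 KO 2, tumour Il1f5 KO 1, tumour Il1f9 KO 1 or tumour Il1f9 KO 2 (adjusted p = 0.0573 to 0.183). Mmp3, Mmp8 and Timp1 were not called in KO (-1.08, 1.31 and -0.62, adjusted p = 0.184, 0.143 and 0.149), and Mmp3 was 1.03 in the Il1f9 line and -3.18 in the Il1f5 line.

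Among pathway genes in WT tumours, Spock2, a matrix proteoglycan, rose by 6.42 (log2, adjusted p = 5.06e-09) and Reck fell (-2.46, adjusted p = 1.44e-08), with 5 of 10 MMP regulators higher and 3 lower. Plat, tissue plasminogen activator, was higher (4.41, adjusted p = 1.03e-08), with Plaur and Serpinb2, 3 of 7 plasminogen genes in all. Of 11 substrates, 9 were lower, with Vcan at -1.79 (adjusted p = 1.69e-07), and Lama5 and Fn1 were higher (1.81 and 0.61). Adam10 and Adam8 were higher (0.74 and 2.31), 5 of 9 ADAM sheddases in all, and Adam33 was lower (-6.87, adjusted p = 2.78e-07). Adamtsl1 and Adamtsl2 fell (-3.64 and -4.28), 5 of 6 ADAMTS-like genes in all. Mep1a and Pcolce fell (-3.10 and -1.15), 5 of 6 astacin genes in all. In KO the 2 genes of each list with the smallest p were Reck and Spock2 (-2.84 and 5.24), Plat and Serpinf2 (3.84 and 1.88), Lama5 and Vcan (1.85 and -1.73), Adam33 and Adam8 (-6.21 and 3.06), Adamtsl1 and Adamtsl3 (-3.79 and -6.04) and Mep1a and Mep1b (-3.53 and -2.08), all called.

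Whether the KO effect differed between tumour and colitis was tested in each line. In the Il1f5 line 8 of 42 members were called, beside 18.1% of all genes, and in the Il1f9 line 4, beside 2.47%. Of the 8, Mmp7 and Adamts7 were called without each library. By the labels, Mmp7 had the higher effect in tumours of both lines, and exchanging the Il1f5 labels turns the sign of the first, with differences of 2.34 ± 0.34 (SE, adjusted p = 0.00195) in the Il1f5 line and 1.70 ± 0.35 (adjusted p = 0.0234) in the Il1f9 line. Every call of the Il1f9 line ended with the compared groups fitted alone (adjusted p = 0.154 to 0.198).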

How the data were processed

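Poly(A) RNA libraries came from 18 mouse samples and were made with a kit that does not mark strand, per the labels' protocols. Trim Galore 0.6.4, HISAT2 2.0.5 and featureCounts 2.0.0 are named in the submitters' processing notes. No genome build is named in the labels, notes or headers used here. The authors deposited raw counts per gene and FPKM, in 1 table for colitis and 1 per line for tumours, and the deposited FPKM are scaled within each table. The same tables hold the authors' log2 fold changes, their p-values and a signal column of scaled group means, per the file headers, none of which was used. Counts were joined by gene ID, and tested with edgeR 4.0.16 (limma 3.58.1, R 4.3.3) by the quasi-likelihood test with TMM scaling, all groups of a tissue (or of both tissues) in 1 fit, Benjamini-Hochberg adjustment over all tested genes and a threshold of 0.05. Genes with low counts were left out by edgeR's filterByExpr. The sums of FPKM, the CPM of library totals and the marker sums were computed from these tables in Python 3.11.15. Alternatives were DESeq2 1.42.0 (Wald test and size factors), no filter, the compared groups alone, each line alone, a minimum log2 change of 1 in size, a replicate block, each library left out and, chosen after seeing the data, the Il1f5 labels exchanged. Fits were tested on simulated data. Members, lists and named genes were chosen with earlier results of these data known. Named were a set of members chosen by role, every member called in KO against WT or tumour against colitis, and of each pathway list the 2 genes with the smallest p and all called where 3 or fewer were. Library totals of 16621611 to 23776174 counts leave members of a few counts imprecise. Replicates of a group differed by more than sampling noise, and none was a copy. Litters and ages are not stated in the labels. Sequences are from RefSeq tables, and exon overlaps from GENCODE M21. The single values of a neuron marker are not reported here.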

Additional observations from a re-analysis of the deposited data

Results flagged for a closer look

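The effect of the KO label differed between the lines in colitis for 25 of 41 tested members, beside 24.8% of all genes. This is the interaction test (edgeR's quasi-likelihood test, adjusted p under 0.05). The values are log2 differences, Il1f9 line minus Il1f5 line, and all were below 0. They rest on the Il1f5 labels, which the Il1f5 counts went against. With those labels exchanged 9 members were called, beside 18.5% of all genes. Of these, 4 (Mmp12, Mmp25, Mmp28 and Adamts15) were also called as labelled and in the same direction, and 11 of the 25 values turned their sign. By the labels as deposited, among the MMPs they were -8.89 for Mmp8, -4.61 for Mmp13, -2.04 for Mmp2, -4.83 for Mmp9, -3.51 for Mmp3, -5.57 for Mmp10, -1.89 for Mmp11, -2.35 for Mmp12, -1.02 for Mmp14, -0.50 for Mmp15, -4.75 for Mmp25, -2.66 for Mmp19, -3.76 for Mmp27 and -1.06 for Mmp28. By the labels Mmp28 fell in both lines, and further in the Il1f9 line. Among the ADAMTS genes they were -3.60 for Adamts4, -1.61 for Adamts5, -2.47 for Adamts9, -0.85 for Adamts15, -1.50 for Adamts2, -1.96 for Adamts14, -1.42 for Adamts6, -2.81 for Adamts7, -2.30 for Adamts12 and -1.44 for Adamts19. Timp2 was the inhibitor called, at -1.59. Mmp2, Mmp9, Mmp10, Mmp14, Mmp25, Mmp19, Mmp28, Adamts2, Adamts7, Adamts12 and Timp2 were called without each library, and the other 14 lost the call without at least 1, with adjusted p up to 0.22. Il1f9 WT 2 or Il1f9 KO 2 was among the libraries for each of these 14.

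The effect differed between tumour and colitis for 8 of 42 tested members in the Il1f5 line, beside 18.1% of all genes. In the Il1f9 line it differed for 4, beside 2.47%. The values are log2 differences, tumour minus colitis. In the Il1f5 line they were, by the labels, -1.30 for Mmp2, 2.34 for Mmp7, -1.51 for Mmp19, 5.08 for Mmp20, -1.82 for Adamts6, -1.51 for Adamts7, -1.11 for Adamts10 and -1.07 for Timp2. The value of Mmp20 depends on the prior count, since its KO-labelled colitis libraries held 0 counts. Mmp7 and Adamts7 were called without each library, and the other 6 lost the call without 6 to 9 of the 10 libraries, taken one at a time (adjusted p up to 0.232). In the Il1f9 line they were 1.70 for Mmp7, 3.51 for Mmp25, 2.00 for Mmp28 and 1.78 for Adamts15. Each lost the call without 3 to 6 of the 8 libraries, taken one at a time (adjusted p up to 0.192). Tissue and table cannot be told apart in these differences. No explanation was tested.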

How the results depend on the processing

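Counts of members called are given as higher or lower, and a change is named where a count moved by over 1.5 times. The share of all genes called is not given for the alternatives in this paragraph, so their counts cannot be set against it. In colitis, a minimum log2 change of 1 in size left 1 member lower in the Il1f5 line. In tumours KO against WT, the Il1f5 line had 2 higher with DESeq2's Wald test, 3 without the filter on low counts and 3 with the compared groups alone, and 1 lower without the filter. The Il1f9 line had 3 lower with DESeq2 and 7 without the filter. The difference between the lines in tumours had 1 higher without the filter, and 4 lower with DESeq2 and 6 without the filter. For tumour against colitis, the Il1f5 line alone gave 9 lower in WT and 7 higher in KO, and the Il1f9 line alone 8 lower in KO. The difference between tissues in the Il1f5 line had 1 higher with DESeq2's size factors and 15 lower without the filter. In the Il1f9 line it had 8 higher with DESeq2's Wald test, 17 without the filter and 0 with the compared groups alone, where all 4 members had adjusted p = 0.154 to 0.198. Members whose direction reversed within 1 line included Mmp23 (0.11) and Adamts15 (0.17) in WT of the Il1f5 line. In KO they included Mmp8 (-1.24), Mmp13 (-0.46) and Mmp25 (-0.28) in the Il1f5 line and Mmp3 (1.03) in the Il1f9 line. Other members not called over both lines turned as well. Examples in WT are Mmp24 (-0.52 over both lines, 0.96 in the Il1f9 line) and Adamts16 (-0.34 over both lines, 0.89 in the Il1f5 line). The cause was not tested.

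Exchanging the WT and KO labels of the Il1f5 line, chosen after seeing the data, gave 2 higher and 18 lower in colitis of that line, 4 higher and 5 lower for the difference between the lines in colitis, and 6 higher and 2 lower for the difference between tissues in that line. In comparisons within the Il1f5 line it only turns each sign. It reversed the difference between the lines in colitis for Mmp2 (0.38), Mmp11 (0.52), Mmp14 (0.40), Mmp15 (0.45), Mmp27 (0.43), Adamts4 (0.32), Adamts14 (0.0772), Adamts6 (0.67), Adamts7 (0.10), Adamts19 (0.79) and Timp2 (1.13), and tumour against colitis in KO for Adamts14 (0.0685) and Timp2 (0.00815).

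Leaving out 1 library gave 9 to 19 higher and 1 to 2 lower in colitis of the Il1f5 line and 7 to 14 lower in the Il1f9 line. The difference between the lines in colitis ran from 13 to 27 lower. In tumours the Il1f9 line ran from 0 to 3 lower and the difference between the lines from 0 to 4, with 3 and 4 without Il1f9 KO 2 and 2 for the second without Il1f9 KO 1. Tumour against colitis ran from 8 to 10 higher and 14 to 16 lower in WT and from 12 to 13 and 14 to 21 in KO. The difference between tissues ran from 1 to 2 higher and 1 to 8 lower in the Il1f5 line, with 1 to 3 lower without colitis WT 1, WT 2, KO 1 or KO 2 or tumour WT 1, WT 2 or KO 1. It had 1 higher without any of these 7 or colitis KO 3, taken one at a time. In the Il1f9 line it ran from 0 to 11 higher, with 0 without colitis KO 1, 1 without colitis WT 2, colitis KO 2 or tumour WT 2, and 11 without tumour KO 1. Between KO and WT tumours of the Il1f9 line, Mmp13 ran from -2.68 to 0.072 and Mmp3 from -3.01 to 1.36 on the log2 scale.

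Same-numbered replicates did not deviate together (correlations -0.24 to 0.01 over genes), so the numbers were read as names. This check is weak. With 2 libraries per group both same-numbered pairs have the same value by construction, and the crosswise pairs have it with the opposite sign. In Il1f9 colitis, replicate 2 also carries the letter C in WT and B in KO in the sample descriptions, so the numbers need not match a pairing. With a replicate block, the difference between tissues had 1 higher and 3 lower in the Il1f5 line and 2 higher in the Il1f9 line, and Mmp3 in Il1f9 tumours was -0.015. The other 17 of 20 counts stayed within 1.5 times. Single calls of KO against WT in colitis still ended with the block. In the Il1f5 line these were Mmp10, Mmp27, Adamts4, Adamts6, Adamts12 and Adamts14 (adjusted p = 0.0512 to 0.0718). In the Il1f9 line they were Mmp3, Mmp13, Adamts3, Adamts5, Adamts9 and Timp3 (adjusted p = 0.0579 to 0.0779). Members of a few counts, such as Mmp16, Mmp20, Mmp27, Adamts18 and Adamts19, are limited by depth.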
